A study of Mus musculus with 3 samples.

Results

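The 10 genes studied belong to the transforming growth factor-beta (TGF-β) pathway and are 10 of the 31053 genes counted. They were followed across cells, enriched for leukocytes, from a mouse glioblastoma (GBM) and the tissue around it. They were chosen by symbol: the ligand gene *Tgfb1*, the milieu molecules *Nrros* and *Lrrc32* that hold the latent ligand, the receptors *Tgfbr1* and *Tgfbr2*, the signal transducers *Smad2* and *Smad3*, and the inhibitors *Smad7*, *Ski* and *Skil*. Female wild-type C57BL/6 mice, 6 to 8 weeks old, had received BT0309 cells in the right striatum. These are brain tumor-initiating cells, labeled with luciferase and GFP, from 1 syngeneic line of NPcis mice, which carry mutations of *Trp53* and *Nf1*, so every library comes from an immunocompetent host with the same tumor line. Niacin (vitamin B3) was injected intraperitoneally at 100 mg/kg per day from day 7, or saline as vehicle, and a section of 2 mm around the injection site was taken at 4 weeks. A Percoll gradient then removed myelin debris and enriched leukocytes. The paper found no cancer-associated copy-number changes in its single-cell data and took tumor cells to be absent. None of the classes below is a tumor class, and the cells kept here were not checked for tumor cells. Live cells were sorted and sequenced as 1 vehicle library (vehicle control replicate 2) and 2 niacin libraries (replicates 1 and 2), each from a pool of 4 brain tissues according to the labels. The methods of the paper count 5 control mice and 10 niacin mice, and the difference is not resolved.

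TGF-β1 is secreted bound to its own latency peptide, and cells present this latent complex on anchoring proteins: NRROS, also called LRRC33, on microglia and other myeloid cells, and GARP, encoded by *Lrrc32*, on regulatory T cells and platelets. Integrins such as αvβ8 release the active ligand. The ligand binds the type II receptor, which recruits and activates the type I receptor, and this phosphorylates SMAD2 and SMAD3. SMAD7 blocks the type I receptor and is itself a target of the pathway, and SKI and SKIL hold SMAD complexes in a repressed state. Microglia need TGF-β to keep their adult identity, and *P2ry12*, *Tmem119* and *Sall1*, used here among the microglia markers, are known to depend on it.

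The control regions of the ligand, of both receptors and of *Nrros* are shown first because they encode the signal, its anchor on myeloid cells and the proteins that receive it. *Tgfb1* lies on chromosome 7 at positions 25687002 to 25705077 of mouse genome build GRCm38, on the plus strand, *Tgfbr1* on chromosome 4 at 47353222 to 47414931, plus strand, *Tgfbr2* on chromosome 9 at 116084293 to 116175360, minus strand, and *Nrros* on chromosome 16 at 32142785 to 32165594, minus strand. The 250 bases that precede an annotated start site of each gene (RefSeq, GRCm38.p6) are printed 5′ to 3′ along the gene, at chr7:25686752-25687001, chr4:47352972-47353221, chr9:116175364-116175613 and chr16:32165595-32165844. Capitals mark 3 short motifs searched on both strands: GAGGAA, the purine-rich core of sites of the myeloid factor PU.1, CAGAC, a SMAD-binding core, and GGGCGG, the GC box.
Tgfb1: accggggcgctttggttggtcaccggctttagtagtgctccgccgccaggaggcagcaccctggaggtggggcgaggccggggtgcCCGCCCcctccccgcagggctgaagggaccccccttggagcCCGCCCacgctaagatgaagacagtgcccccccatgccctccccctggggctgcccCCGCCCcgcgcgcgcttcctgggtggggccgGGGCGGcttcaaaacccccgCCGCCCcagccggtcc
Tgfbr1: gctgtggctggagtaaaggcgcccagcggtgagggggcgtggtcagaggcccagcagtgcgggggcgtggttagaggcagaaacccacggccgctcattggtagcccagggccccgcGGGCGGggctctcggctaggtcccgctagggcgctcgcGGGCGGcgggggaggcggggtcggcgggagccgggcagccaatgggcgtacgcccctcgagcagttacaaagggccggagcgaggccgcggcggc
Tgfbr2: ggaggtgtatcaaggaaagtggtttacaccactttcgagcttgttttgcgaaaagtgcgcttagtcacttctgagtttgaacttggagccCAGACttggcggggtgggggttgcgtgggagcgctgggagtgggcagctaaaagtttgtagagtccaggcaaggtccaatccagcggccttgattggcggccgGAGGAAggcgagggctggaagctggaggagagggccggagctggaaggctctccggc
Nrros: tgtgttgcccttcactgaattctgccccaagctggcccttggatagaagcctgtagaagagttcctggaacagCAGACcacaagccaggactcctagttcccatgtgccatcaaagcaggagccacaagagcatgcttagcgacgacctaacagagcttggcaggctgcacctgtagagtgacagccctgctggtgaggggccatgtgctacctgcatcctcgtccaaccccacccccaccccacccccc
The *Tgfbr2* window holds 1 match of GAGGAA and 1 of CAGAC, and the *Nrros* window 1 of CAGAC. The printed windows of *Tgfb1* and *Tgfbr1* hold neither, but 5 and 2 matches of the GC box. A second annotated start of *Tgfbr1* differs from the printed one, since the 250 bases before it (chr4:47385966-47386215) hold 1 match of GAGGAA, 1 of CAGAC and 0 of the GC box. Among 32851 RefSeq windows of this length, 23.3% hold GAGGAA, 42.2% hold CAGAC and 32.7% hold GGGCGG, so none of these matches is rare.

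The libraries hold 8301228 (vehicle), 9373321 and 10359526 (niacin) unique molecular identifiers (UMIs), each of them 1 captured RNA molecule. After filtering and after keeping only the deepest copy of each of 924 barcodes that occurred in more than 1 library, 4344 cells remained. Cells were assigned to classes by the UMIs of lineage markers, none of which is a member. The microglia markers *P2ry12*, *Tmem119* and *Sall1* are known to depend on TGF-β, so the assignment was not independent of the pathway. The part of this in the class comparisons below was not tested. Of the cells, 2225 were microglia-like, 417 monocyte- or macrophage-like (monocyte/macrophage-like below), 311 T cell-like, 288 choroid plexus-like, 164 granulocyte-like and 99 B cell-like, and 602 stayed unassigned. The vehicle library stood apart, with a median mitochondrial share of 8.85% over its barcodes against 3.08% and 3.29%, and with 334 of its 1324 cells unassigned against 109 of 1421 and 159 of 1599. Among the cells kept, the median share was 5.12% against 2.72% and 3.45%, and the median depth was 2982.5 against 5063 and 5212 UMIs. Levels are given as CPM, the counts of a gene scaled to a fixed total of UMIs per class and library, which do not depend on transcript length, as mean ± SD over 3 libraries. The order of values in 3 libraries is vehicle control, niacin replicate 1, niacin replicate 2 throughout.

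The marker levels of the classes describe the assignment, which used them, and are no test of it. The summed level of the 9 microglia markers was 10782, 13537 and 13803 CPM in microglia-like cells and 84.8, 89.4 and 58.2 CPM in monocyte/macrophage-like cells. The summed level of the monocyte and macrophage markers was 133, 27.4 and 27.4 CPM in microglia-like cells and 6703, 4535 and 4929 CPM in their own class.

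The ligand gene *Tgfb1* was highest in monocyte/macrophage-like cells, at 580, 410 and 428 CPM (473 ± 93.5, n = 3). Microglia-like cells followed at 347, 315 and 326 CPM (329 ± 16.01), and the libraries of both classes did not overlap. B cell-like cells had 147 ± 44.1 CPM, T cell-like cells 130 ± 78.3 and granulocyte-like cells 74.6 ± 39.4, and neighboring classes in this part of the order overlapped between libraries, apart from choroid plexus-like cells at the low end with 18.9 ± 26.2 CPM. The 82 NK cell-like cells, too few in niacin replicate 1 (8 cells) to enter a test, had 566, 330 and 397 CPM. In the erythroid-like cells, which should lack the gene, 3 UMIs were found among 1265964.

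*Nrros*, which anchors latent TGF-β1 on myeloid cells, was highest in the same class as the ligand. Monocyte- and macrophage-like cells had 238, 275 and 246 CPM (253 ± 19.4) and microglia-like cells 174, 155 and 150 CPM (160 ± 12.7). In B cell-like cells the level was 173, 84.4 and 86.8 CPM, in granulocyte-like cells 76.8 ± 37.1 CPM and in T cell-like cells 28.5 ± 8.06 CPM. The ranges of microglia- and B cell-like cells overlapped.

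Among the named classes, *Lrrc32* was detected in T cell-like cells. T cell-like cells held 22, 12 and 6 of its UMIs (39.3, 24.0 and 8.81 CPM), and 0 were found in the 2225 microglia-like, the 417 monocyte/macrophage-like, the 164 granulocyte-like, the B cell-like and the choroid plexus-like cells. A further 15 UMIs lay in 11 of the 602 unassigned cells (12, 2 and 1 UMIs). Over all libraries the T cell-like level was at least 83.9-fold higher than in microglia-like cells, at least 26.6-fold higher than in monocyte/macrophage-like cells and at least 8.48-fold higher than in granulocyte-like cells, with 3 UMIs per class taken as the limit that a count of 0 allows. Without the vehicle library, which holds 22 of the 40 UMIs, these limits were 44.0-fold, 6.76-fold and 4.61-fold. Without niacin replicate 1 those against microglia-like and granulocyte-like cells were 51.4-fold and 5.003-fold. *Lrrc32* lies on chromosome 7 at 98489283 to 98502181 (GRCm38, plus strand).

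Within the T cell-like cells, *Lrrc32* went with *Foxp3*, the factor that defines regulatory T cells. Of 37 cells with a *Foxp3* UMI, 13 also had *Lrrc32* (35.1%), against 2.19% of the 274 others, at a median depth of 4994 and 5845 UMIs. The *Foxp3*+ cells were 26, 6 and 5 in the 3 libraries and held 18, 11 and 0 *Lrrc32* UMIs. The 92 cells with *Cd8a* or *Cd8b1* but neither *Cd4* nor *Foxp3* (*Cd8*+ cells) had 0 *Lrrc32* UMIs. *Tgfb1* itself was at 358 CPM in the *Foxp3*+ cells of the vehicle library, on 48 UMIs, and the 11 such cells of the niacin libraries held 2 *Tgfb1* UMIs.

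The type I receptor gene *Tgfbr1* marked microglia-like cells most clearly, at 1060, 1103 and 1110 CPM (1091 ± 27.6). Monocyte- and macrophage-like cells had 226, 152 and 126 CPM (168 ± 51.6), B cell-like cells 63.7 ± 32.6, T cell-like cells 30.9 ± 14.3 and choroid plexus-like cells 8.97 ± 2.62 CPM. The 71 mast cell- or basophil-like cells, too few in the vehicle library (4 cells) to enter a test, had 273, 250 and 297 CPM. These lay above monocyte/macrophage-like cells in every library, on 4, 28 and 35 UMIs. In granulocyte-like cells the vehicle library, with 170 CPM, stood far above the 24.9 and 28.0 CPM of the niacin libraries. After each cell was thinned to 2000 UMIs, 84.8%, 83.6% and 84.4% of microglia-like cells had a *Tgfbr1* UMI, against 37.0%, 30.3% and 18.8% of monocyte/macrophage-like cells and 0% to 2.61% of choroid plexus-like cells, which give the background. Cells under 2000 UMIs, 642 microglia-like and 87 monocyte/macrophage-like, were left out of these shares.

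The type II receptor gene *Tgfbr2* was spread more evenly. Microglia-like cells had 359, 306 and 291 CPM (318 ± 35.7), T cell-like cells 240, 128 and 123 CPM (164 ± 65.8), B cell-like cells 113 ± 19.3 and monocyte/macrophage-like cells 70.7, 109 and 73.9 CPM (84.4 ± 21.0). No other class reached the microglia-like range, while T cell-, B cell- and monocyte/macrophage-like cells overlapped with their neighbors in this order. Both receptors were detected together in 39.4%, 38.3% and 35.8% of the thinned microglia-like cells, against 5.50%, 7.58% and 4.69% in the monocyte/macrophage-like class. The ligand and both receptors were found together in 17.7%, 17.6% and 15.9% of the former and 2.50%, 6.06% and 0% of the latter.

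The signal transducers were low in every class. *Smad2* was at 43.5, 55.3 and 51.2 CPM in microglia-like and 37.5, 44.7 and 56.8 CPM in monocyte/macrophage-like cells, and the ranges of neighboring classes overlapped down to T cell-like cells (31.4 ± 4.69 CPM). *Smad3*, on chromosome 9 at 63646767 to 63757994 (GRCm38, minus strand), was at 54.3, 41.5 and 40.6 CPM in microglia-like cells. In monocyte/macrophage-like cells it was at 9.83, 30.3 and 22.7 CPM, on 21, 19 and 16 UMIs.

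The inhibitors were highest in microglia-like cells, all 3 without overlap with any other class. *Smad7*, the feedback inhibitor, was at 392, 536 and 430 CPM (453 ± 74.8). Among the classes with enough cells to test, T cell-like cells followed at 182, 174 and 178 CPM (178 ± 4.21) and B cell-like cells at 160 ± 50.7 CPM. Of the smaller classes, NK cell-like cells had 230, 297 and 323 CPM and mast cell- or basophil-like cells 205 (on 3 UMIs), 205 and 221 CPM. Both lay above T cell-like cells in every library. Monocyte- and macrophage-like cells had 74.0, 51.1 and 14.2 CPM. *Skil*, on chromosome 3 at 31095058 to 31122577 (GRCm38, plus strand), was at 666, 546 and 540 CPM in microglia-like cells (584 ± 70.8) and 270, 133 and 108 CPM in monocyte/macrophage-like cells. *Ski*, on chromosome 4 at 155154075 to 155222592 (minus strand), was at 318, 246 and 232 CPM in microglia-like cells (265 ± 46.1), 84.7 ± 44.3 CPM in T cell-like and 117, 33.5 and 27.0 CPM in monocyte/macrophage-like cells.

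**Figure D1:**
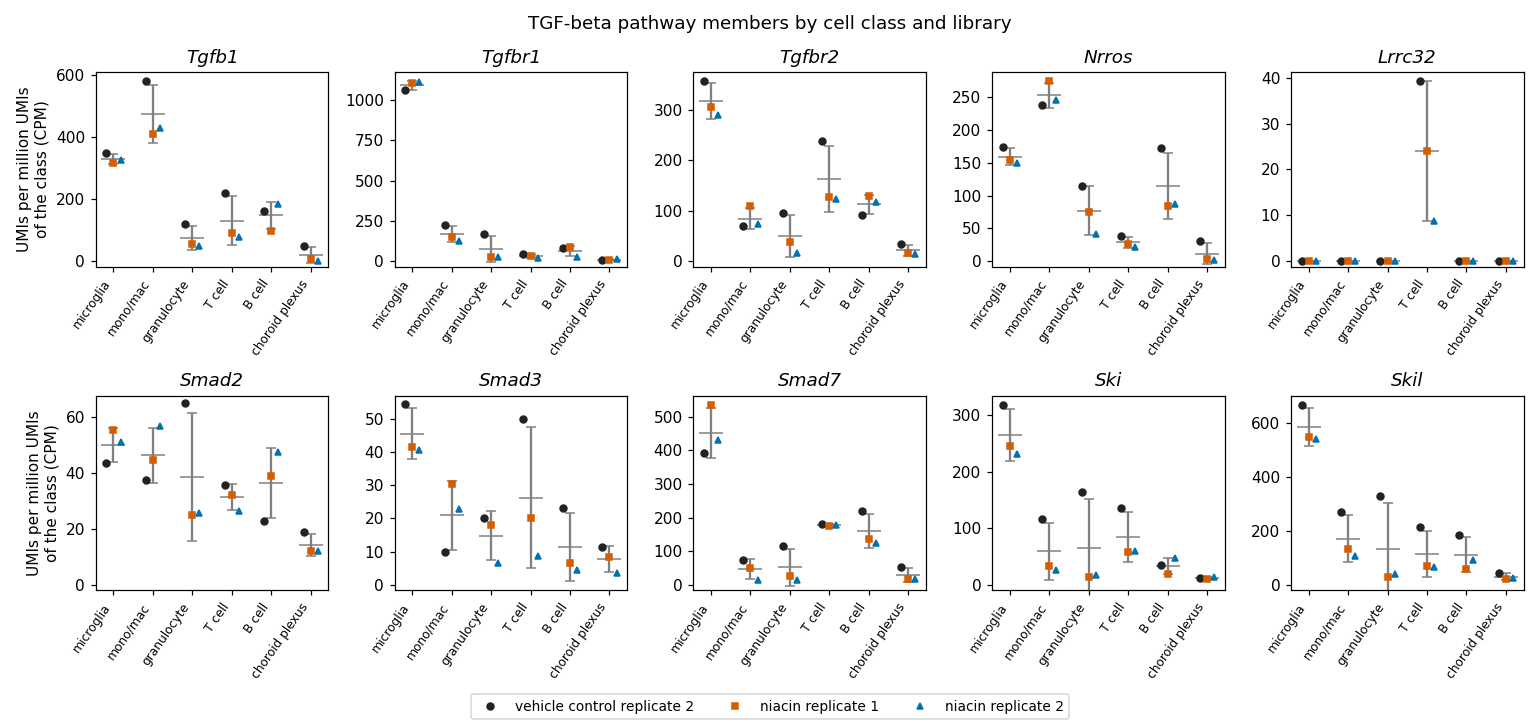
Level of each member (vertical axis, CPM, linear, a scale of its own in each panel) in 6 cell classes (horizontal axis), with 1 point per library and the mean ± SD over 3 libraries in grey. *Tgfbr1* stands at 1060 to 1110 CPM in microglia-like cells and at 226 CPM or less in the other classes shown, *Tgfb1* and *Nrros* are highest in monocyte/macrophage-like cells, and *Lrrc32* is found in T cell-like cells.

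To ask how resident microglia differ from infiltrating myeloid cells in this pathway, UMI sums per class and library entered the quasi-likelihood test of edgeR with a library block and Benjamini-Hochberg adjustment over 9440 genes. Receptors and inhibitors were higher in microglia-like than in monocyte/macrophage-like cells, and *Nrros* was lower. *Smad7* was higher by 3.30 on the log2 scale (SE 0.38, adjusted p = 4.42e-07), *Tgfbr1* by 2.71 (SE 0.33, adjusted p = 9.25e-07), *Ski* by 2.28 (SE 0.37, adjusted p = 3.37e-05), *Skil* by 1.88 (SE 0.32, adjusted p = 5.55e-05), *Tgfbr2* by 1.87 (SE 0.29, adjusted p = 1.80e-05) and *Smad3* by 1.23 (SE 0.39, adjusted p = 0.0136). *Nrros* differed by -0.73 (SE 0.29, adjusted p = 0.0464). For *Tgfb1* the difference was -0.54 (95% interval -1.28 to 0.19, adjusted p = 0.226) and for *Smad2* 0.07 (-0.43 to 0.57, adjusted p = 0.851). *Lrrc32* had too few counts to be tested.

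Thus 6 of the 9 members tested were higher and 1 was lower, where 25.5% of all genes tested were higher and 19.8% lower. The median difference was 1.87 over the members and 0.16 over all genes. The calls for *Tgfbr1*, *Tgfbr2*, *Smad7*, *Ski* and *Skil* held in all 14 alternatives. *Nrros* lost its call without niacin replicate 1 (adjusted p = 0.220) and niacin replicate 2 (0.152) and without the library block (0.141), and *Smad3* with DESeq2 (0.119), without the vehicle library (0.159) and without niacin replicate 2 (0.0503). Without the vehicle library *Tgfb1* passed, with -0.51 (adjusted p = 0.000525).

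Against lymphocyte-like cells, taken as the mean of the T cell- and B cell-like classes because too few NK cell-like cells were present, microglia-like cells were higher in 8 of 9 members tested (background 27.4% of genes), and 0 were lower (16.1%). The differences ran from 1.15 for *Tgfbr2* (SE 0.24, adjusted p = 0.000517) to 4.71 for *Tgfbr1* (SE 0.31, adjusted p = 5.27e-11), with *Tgfb1* at 1.26, *Smad7* at 1.44, *Nrros* at 1.501, *Smad3* at 1.56, *Ski* at 2.28 and *Skil* at 2.56. *Smad2* did not pass, with 0.45 (95% interval -0.06 to 0.97, adjusted p = 0.147). The 82 NK cell-like cells, outside this mean, lay above microglia-like cells for *Tgfb1*, at 566, 330 and 397 against 347, 315 and 326 CPM. Over all libraries they also did so for *Smad3*, at 77.3 CPM (21 UMIs) against 43.8 CPM. For the other members tested they lay below microglia-like cells. The calls for *Tgfb1* (adjusted p = 0.114) and *Smad3* (0.0856) were lost without niacin replicate 1, and that for *Smad3* also without niacin replicate 2 (0.158).

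Monocyte- and macrophage-like cells exceeded lymphocyte-like cells in the ligand, its anchor and the type I receptor: *Nrros* by 2.23 (SE 0.28, adjusted p = 2.13e-06), *Tgfbr1* by 2.00 (SE 0.32, adjusted p = 3.75e-05) and *Tgfb1* by 1.81 (SE 0.32, adjusted p = 0.000126). NK cell-like cells, again outside the mean, had *Tgfb1* at 566, 330 and 397 CPM, near the 580, 410 and 428 CPM of monocyte/macrophage-like cells. *Smad7* was lower, with -1.87 (SE 0.36, adjusted p = 0.000325), and *Tgfbr2* with -0.72 (SE 0.27, adjusted p = 0.0491). These are 3 of 9 members higher, against 20.8% of all genes, and 2 lower, against 12.2%. The *Tgfbr2* call was kept in 4 of 14 alternatives, and lost without the library block (adjusted p = 0.111), without the vehicle library (adjusted p = 0.0629), without niacin replicate 1 (0.109) and without niacin replicate 2 (0.229). Without the vehicle library *Smad3* (1.58, adjusted p = 0.0216) and *Skil* (0.71, adjusted p = 0.00677) passed as higher. *Smad2*, *Ski* and *Skil* had differences of 0.39, 0.01 and 0.68 that did not pass, and *Smad3* 0.32 (95% interval -0.84 to 1.48).

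**Figure D2:**
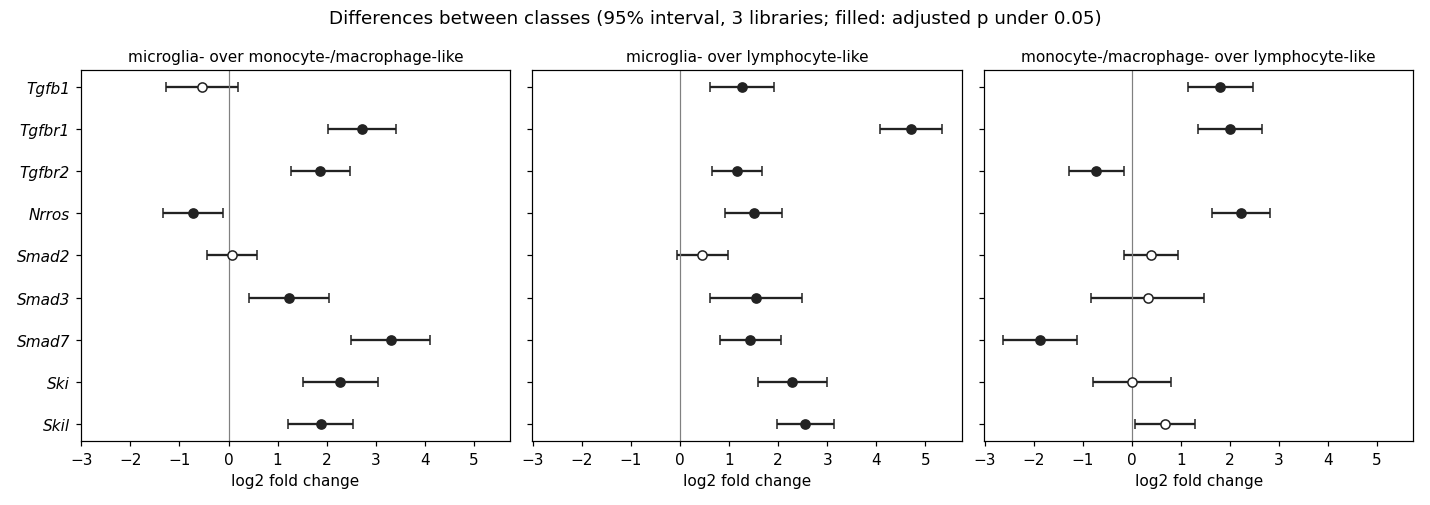
Log2 fold change (horizontal axis) of the 9 tested members (vertical axis) in 3 comparisons of cell classes, with 95% intervals from edgeR over 3 libraries. Filled points have an adjusted p under 0.05. All receptors and inhibitors lie to the right of 0 in both comparisons of microglia-like cells, and *Smad7* at -1.87 and *Tgfbr2* at -0.72 lie to the left where monocyte/macrophage-like cells are compared with lymphocyte-like cells.

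Granulocyte-like cells had less of the ligand and of its anchor than monocyte/macrophage-like cells. *Tgfb1* differed by -2.08 (SE 0.41, adjusted p = 0.000563) and *Nrros* by -1.13 (SE 0.34, adjusted p = 0.0138), and 0 of 9 members were higher. Over all genes 18.5% were lower and 12.9% higher in this comparison, 1215 higher and 1749 lower, a split that became 1395 and 1276 with DESeq2. The median difference of all genes was -0.29 with TMM, -0.16 with RLE size factors and -0.06 with DESeq2, and both calls held in each of them. Without the vehicle library, where granulocyte-like cells were shallow (median 2202 UMIs against 5608.5 and 8755), *Tgfbr1* (-1.43, adjusted p = 0.000736) and *Skil* (-0.85, adjusted p = 0.0195) also passed as lower. The *Nrros* call was lost without niacin replicate 1 (adjusted p = 0.0781), without niacin replicate 2 (0.159) and without the library block (0.0521).

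The wider pathway, a list of 51 further genes, did not shift as a whole between microglia-like and monocyte/macrophage-like cells. Of 41 tested, 13 were higher and 10 lower, with a median of 0.11 against 0.16 over all genes. Over all genes tested 25.5% were higher and 19.8% lower, so these counts are near the background and are given by role as a description. Higher were 3 of 8 receptors and co-receptors, 2 of 3 further Smads, 4 of 11 adaptors, inhibitors and ligases and 4 of 11 target genes. Lower were 3 of 7 latency and activation genes, 1 receptor, 1 adaptor and 5 of 11 target genes. Neither of the other ligands was present at more than 5 UMIs in microglia-like cells (5 for *Tgfb2*, 1 for *Tgfb3*), and the integrin subunit gene *Itgb8*, whose product activates latent TGF-β, had 1 UMI there and 0 in monocyte/macrophage-like cells. Both *Itgb8* (182 ± 99.9 CPM, 325 UMIs) and *Tgfb2* (141 ± 51.7 CPM, 264 UMIs) were found in choroid plexus-like cells, and T cell-like cells had 11 *Itgb8* UMIs.

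Among genes higher in microglia-like cells, *Pmepa1*, a TGF-β-induced inhibitor of the receptor-activated Smads, stood at 563, 805 and 808 CPM against 73.5, 15.97 and 11.4 CPM (log2 difference 4.61, SE 0.49, adjusted p = 1.11e-07). *Ldlrad4*, a related inhibitor, was at 53.3 ± 14.3 against 2.10 ± 0.65 CPM (4.44, SE 0.45, adjusted p = 5.58e-08). *Bmpr1a*, a type I receptor of bone morphogenetic proteins, had 319 UMIs in microglia-like cells and 1 in monocyte/macrophage-like cells (adjusted p = 2.21e-07).

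Among genes lower in microglia-like cells, *Tgfbi*, which encodes a secreted matrix protein, was at 56.5, 24.8 and 27.8 CPM against 2302, 324 and 274 CPM (-4.22, SE 0.55, adjusted p = 2.13e-06), so its level in monocyte/macrophage-like cells was carried largely by the vehicle library. The transcription factor gene *Bhlhe40* was at 7.26 ± 7.70 against 231 ± 35.7 CPM (-5.35, SE 0.54, adjusted p = 6.30e-08) and *Id3*, a target of bone morphogenetic proteins, at 1.48 ± 1.28 against 32.1 ± 40.2 CPM (-4.13, SE 0.62, adjusted p = 1.90e-05). *Tgfbi*, *Bhlhe40* and *Id3* are among the listed target genes, as is *Ldlrad4*, which was higher, so the named targets went both ways. *Tgfbr3*, the co-receptor betaglycan, had 2 UMIs in microglia-like cells and 62 in the far fewer monocyte/macrophage-like cells (adjusted p = 4.46e-07).

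The genes whose levels over 18 sums (6 classes in 3 libraries) ran most like a member's were picked by Pearson's r of log2(CPM + 10). For *Tgfbr1* these were *Mef2a* (r = 0.967), *Jun* (0.959), *Gusb* (0.953), *Maml3* (0.9497) and *Pla2g15* (0.947). For *Tgfb1* they were *Tmed5* (0.963), *Tor1aip1* (0.945), *BC017643* (0.941), *Etv6* (0.936) and *Ubl3* (0.936), and for *Tgfbr2* *Wdr44* (0.976), *Ddx5* (0.966), *Rbm26* (0.961), *AC149090.1* (0.949) and *Srsf5* (0.939). None is a class marker, and the 18 points share classes and libraries.

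Within microglia-like cells, the members varied with the depth of the cell. *Tgfbr1* was at 1465, 1493 and 1521 CPM in cells under 2000 UMIs and at 889, 909 and 966 CPM in cells with 8000 UMIs or more. *Smad7* ran the same way, from 523, 853 and 781 CPM to 334, 419 and 340 CPM. *Tgfb1* ran the other way, from 287, 181 and 249 CPM to 363, 346 and 340 CPM, and *Tgfbr2* stayed between 249 and 385 CPM in every bin and library. The median mitochondrial share was 5.75% in the shallow and 1.93% in the deep cells. Its part in these differences was not tested.

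**Figure D3:**
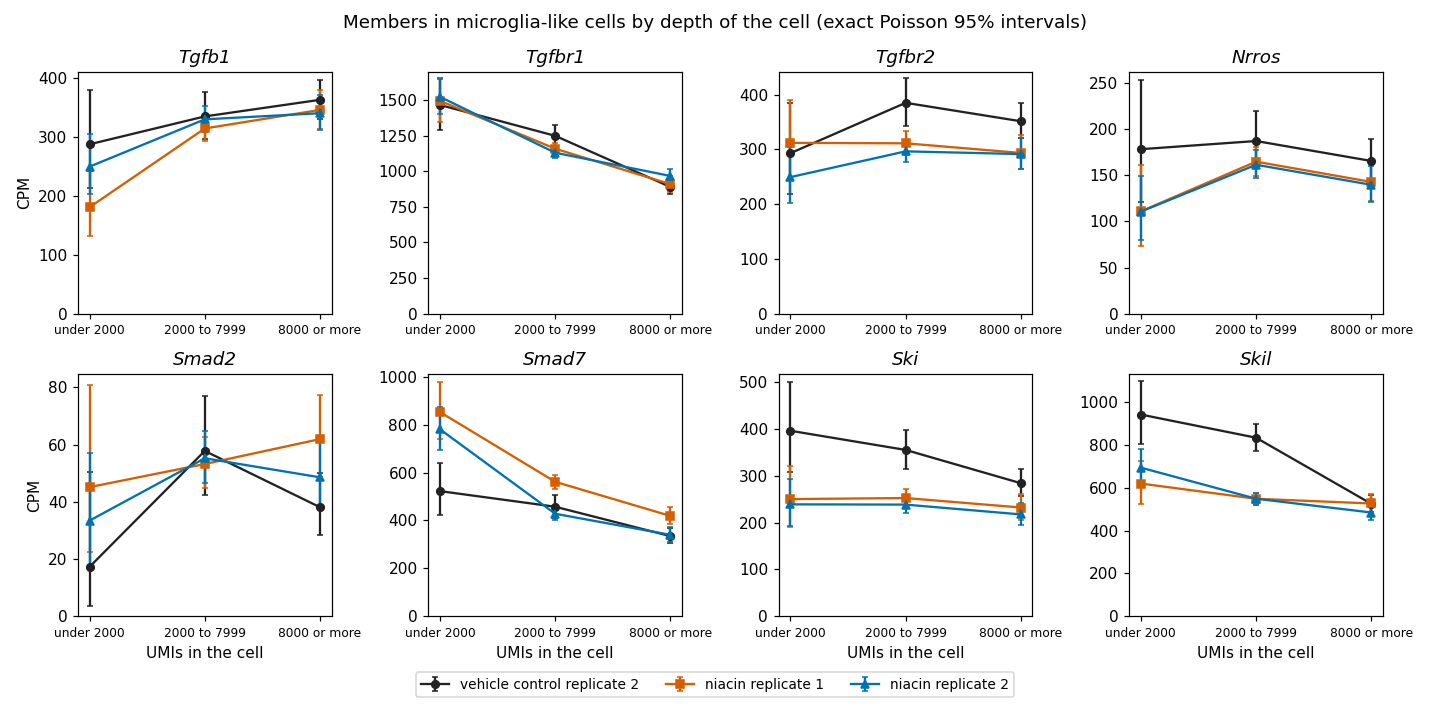
Level of 8 members (vertical axes, CPM from 0) in microglia-like cells of 3 depth ranges (horizontal axes, UMIs in the cell), with 1 line per library and exact Poisson 95% intervals. *Tgfbr1* stands at 1465 to 1521 CPM in the shallowest cells of the 3 libraries and at 889 to 966 CPM in the deepest, and *Skil* of the vehicle library at 942 and 525 CPM.

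Some microglia-like cells carried genes of an activated state (*Cst7*, *Ch25h*, *Cxcl13*, *Lpl*, *Itgax* and *Csf1*). Cells thinned to 2000 UMIs were split into 46 with at least 2 of these UMIs (23, 9 and 14) and those with 0 (214, 599 and 580 cells). Before thinning the former were deeper, with medians of 9401, 7925 and 7813 UMIs against 7293, 6008 and 6412.5 UMIs in the latter. *Tgfbr1* was at 696, 611 and 929 CPM in the former and 1245, 1147 and 1188 CPM in the latter, without overlap (log2 difference -0.77, SE 0.26, edgeR adjusted p = 0.0754). *Nrros* was at 0, 55.6 and 143 CPM against 192, 160 and 147 CPM, on 5 UMIs in the activated cells (-1.67, SE 0.61, adjusted p = 0.113). The part of the depth before thinning in these differences was not tested.

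With edgeR, 0 of 8 members tested passed in this comparison, where 2.2% of 4228 genes were higher and 1.37% lower. This split of 93 higher and 58 lower turned round to 34 and 90 without the filter on low counts, 14 and 23 without the vehicle library, 51 and 56 without the 5% of cells with the most UMIs and 9 and 54 at 1000 UMIs. All 8 differences were negative, with a median of -0.70 against -0.17 over all genes, and 4 members had an unadjusted p under 0.05. With DESeq2 0 members passed and 1 had an unadjusted p under 0.05. Of 23 further pathway genes tested, 2 passed, the early response genes *Jun* (-1.11, SE 0.22, adjusted p = 7.5e-05) and *Junb* (-1.13, SE 0.23, adjusted p = 0.000163), both lower in the activated cells. The split is a range of a score, with 40, 52 and 52 cells at 1 UMI between the groups.

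Niacin and vehicle were compared by value only, since 1 vehicle library gives no spread between controls, and library and treatment cannot be told apart. In microglia-like cells the members stayed within 1.5-fold of vehicle in both niacin libraries: 0 of 9 were past this fold in both libraries, where 8.29% of 10749 genes were higher and 11.1% lower. *Tgfbr1* had exact Poisson 95% intervals of 1018 to 1102 CPM with vehicle and of 1071 to 1136 and 1080 to 1142 CPM with niacin. *Tgfb1* was at 323 to 372 CPM against 299 to 333 and 309 to 343 CPM. *Ski* was at 295 to 342 CPM against 231 to 262 and 218 to 246 CPM, and *Smad7* at 367 to 419 CPM against 514 to 559 and 411 to 449 CPM. These intervals cover counting error only.

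In monocyte/macrophage-like cells 3 of 9 members were past 1.5-fold in both niacin libraries: *Smad3* higher, and *Ski* and *Skil* lower, against a background of 12.7% of 8044 genes higher and 16.6% lower. *Ski* was at 117 CPM (103 to 132) with vehicle and at 33.5 (20.8 to 51.3) and 27.0 (16.2 to 42.1) with niacin, and *Skil* at 270 CPM (249 to 293) against 133 (106 to 164) and 108 (85.0 to 135). *Smad3* stood at 9.83 CPM (6.09 to 15.0) with vehicle and at 30.3 (18.3 to 47.4) and 22.7 (12.99 to 36.9) with niacin. *Smad7* was at 74.0, 51.1 and 14.2 CPM, *Tgfbr1* at 226, 152 and 126 CPM and *Tgfb1* at 580, 410 and 428 CPM, all lower with niacin but not past the fold in both libraries. With every barcode shared between libraries removed, *Ski* (log2 ratio of the niacin mean over vehicle -1.64, from -1.95) and *Skil* (-1.29, from -1.17) were still past the fold, and *Smad2* (0.80) and *Smad7* (-1.66) were past it too. *Smad3* was then at 9.20 CPM with vehicle and at 41.0 and 30.2 CPM with niacin, a log2 ratio of 1.95, but had too few UMIs left to be counted.

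The make-up of this class differed between the libraries. Of 264 vehicle cells, 189 led with classical monocyte genes (*Ly6c2*, *Chil3*, *Plac8*), 14 with nonclassical ones (*Ear2*, *Treml4*, *Ace*) and 30 with *Arg1*, *Gpnmb* or *Spp1*, whereas the niacin libraries had 22 and 35 classical and 49 and 27 nonclassical cells. Within the classical cells *Ski* was at 129, 14.4 and 18.7 CPM (on 211, 4 and 7 UMIs), *Skil* at 291, 79.1 and 72.3 CPM, *Tgfbr1* at 228, 68.3 and 85.7 CPM and *Tgfb1* at 623, 428 and 420 CPM. The ratios of vehicle over niacin for *Ski*, *Skil* and *Tgfbr1* were larger there than in the whole class, on few niacin cells. The part of the make-up in the values of the class was not tested. In nonclassical cells *Ski* went the other way, with 0, 46.0 and 24.9 CPM on 0, 14 and 5 UMIs. Nonclassical cells had more *Tgfbr1* than classical cells in every library, at 361, 250 and 209 CPM. *Tgfbr2* was at 248, 138 and 79.6 CPM in nonclassical against 66.1, 71.9 and 77.6 CPM in classical cells. The last pair, on 16 and 29 UMIs, was nearly equal.

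*Skil* was below vehicle in both niacin libraries in all 6 classes, with 213, 68.0 and 64.6 CPM in T cell-like, 330, 29.4 and 38.7 CPM in granulocyte-like, 184, 58.5 and 91.1 CPM in B cell-like and 45.2, 21.2 and 25.2 CPM in choroid plexus-like cells. The share of all genes below vehicle in all 6 classes is not given here, so this pattern is not set against a background. In T cell-like cells 6 of 10 members were past 1.5-fold lower in both niacin libraries and 0 higher (background 21.6% lower, 10.4% higher): *Tgfb1*, *Tgfbr2*, *Lrrc32*, *Smad3*, *Ski* and *Skil*. *Tgfb1* in these cells was at 220, 92.0 and 77.8 CPM, and *Smad7* at 182, 174 and 178 CPM. The make-up of this class also differed, with 26, 6 and 5 *Foxp3*+ cells and 15, 42 and 35 *Cd8*+ cells. Over all libraries *Tgfb1* was at 259 CPM in *Foxp3*+ and 93.6 CPM in *Cd8*+ cells, and *Smad3* at 72.5 and 12.1 CPM. These *Foxp3*+ levels rest on the vehicle library. By library *Tgfb1* was at 358, 51.0 and 0 CPM in *Foxp3*+ against 218, 55.3 and 86.7 CPM in *Cd8*+ cells. *Smad3* was at 104, 0 and 0 CPM against 12.1, 18.4 and 7.22 CPM. In the niacin libraries, with few *Foxp3*+ cells, both genes were thus lower in *Foxp3*+ than in *Cd8*+ cells. Within the *Cd4*+ cells without *Foxp3* or *Cd8* UMIs, *Tgfb1* was at 170, 125 and 72.4 CPM and *Skil* at 229, 89.3 and 68.6 CPM. The part of the make-up in the lower levels was not tested. In granulocyte-like cells 8 of 8 members with enough UMIs were lower, but so were 45.7% of all genes, with 6.65% higher. In choroid plexus-like cells 3 of 3 were lower (background 27.5%) and in B cell-like cells 3 of 5 (23%). The higher mitochondrial share of the vehicle library moves with all of these, and its part was not tested.

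**Figure D4:**
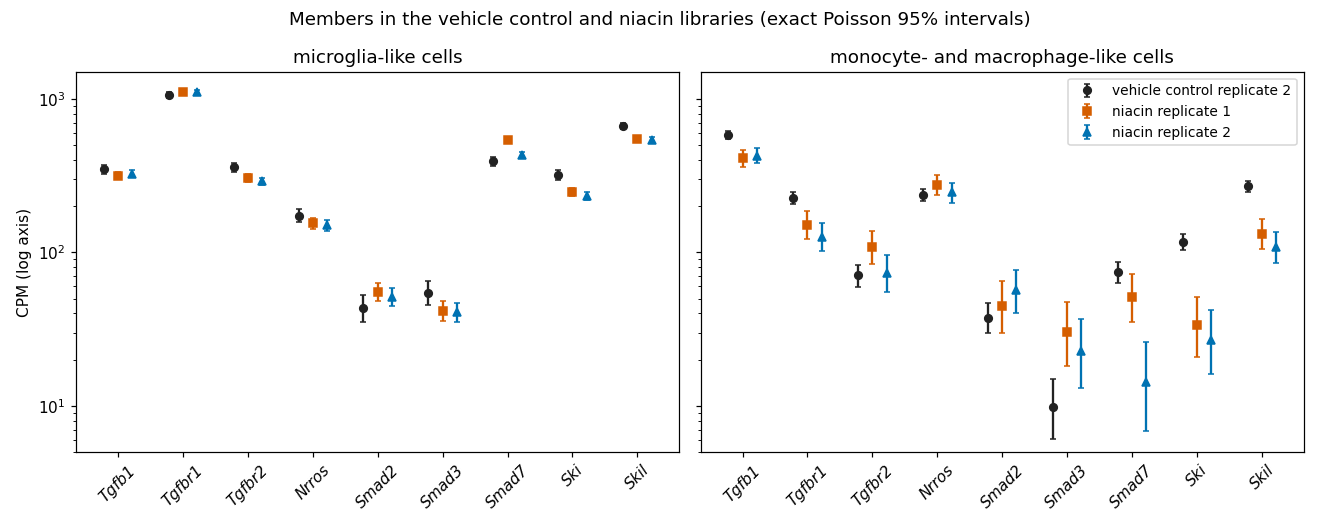
Level of 9 members (vertical axis, CPM on a log axis) in microglia-like cells (left) and monocyte/macrophage-like cells (right), with 1 point per library and exact Poisson 95% intervals. In microglia-like cells the 3 libraries lie close together, with *Tgfbr1* at 1060 to 1110 CPM, and in monocyte/macrophage-like cells *Ski* at 117 CPM and *Skil* at 270 CPM in the vehicle library lie above the niacin libraries.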

How the data were processed

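Single-cell RNA was measured with Chromium 3′ v3.1 kits, and the authors made the matrices with Cell Ranger 3.1, which uses STAR, on mm10. The deposited values are raw UMI counts per gene and barcode. Barcodes were kept where 200 or more genes were detected and the mitochondrial share was 20% or less, and of a barcode found in several libraries only the copy with the most UMIs (a median of 15.7 times the next), which dropped 1184 passing copies. A cell took the class with the most marker UMIs, given at least 3 from 2 markers and at most a share of 33.3% of these from any other class. No doublet caller was run, and cells with markers of several classes stayed unassigned. No source says how the pools relate to single mice beyond the labels, while the methods give 5 mice per pool. The p-values thus measure how differences between groups of cells vary over 3 pooled libraries, not over mice. In the class comparisons this spread was estimated jointly over the 18 sums of 6 classes in 3 libraries.

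Counts were summed per class and library (classes with at least 10 cells in each library) and tested with edgeR 4.0.16 in R 4.3.3 (TMM, filterByExpr, quasi-likelihood, library block), with DESeq2 1.42.0 as an alternative. Cells of the same library come from the same animals, which is why the library is a block: over 15 class pairs per library, deviations correlated at medians of 0.12 to 0.26. The script was tested on simulated data. Shares used cells thinned to 2000 UMIs. Niacin ratios used genes with at least 30 UMIs. Intervals are exact, at 95%, and cover counting error only. The 10 members were always named. Of 51 other pathway genes, up to 4 with the largest positive and 4 with the largest negative difference that passed between microglia-like and monocyte/macrophage-like cells were named, and the 5 genes most like *Tgfb1*, *Tgfbr1* and *Tgfbr2*. *Tgfb2*, *Tgfb3*, *Itgb8*, *Jun* and *Junb* were added after their values were seen. The *Lrrc32* limits without single libraries were added after seeing the data. The members and lists were chosen with earlier results of these data known. Coordinates are from GENCODE vM21. Promoter windows were kept for 6 of 10 members. A pathway gene that the rule for named genes picked is not reported here.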

Additional observations from a re-analysis of the deposited data

Results flagged for a closer look

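Between vehicle and niacin, 5 of the 9 members compared lay on one side of vehicle in both niacin libraries in microglia-like cells and on the opposite side in both in monocyte/macrophage-like cells, as did 21.8% of 7687 genes. The difference was not tested, since there is 1 vehicle library. As log2 ratios of the niacin mean over vehicle, *Tgfbr1* was at 0.06 in microglia-like and -0.70 in monocyte/macrophage-like cells, a gap of 0.76. *Smad7* was at 0.30 and -1.18, a gap of 1.48. *Smad3* was at -0.40 and 1.43, a gap of -1.84, on 21 UMIs in the vehicle monocyte/macrophage-like cells. *Tgfbr2* was at -0.27 and 0.37, a gap of -0.63, and *Nrros* at -0.19 and 0.13, a gap of -0.32. For *Nrros* the exact Poisson 95% intervals of niacin and vehicle overlapped in both classes, and for *Tgfbr1* and *Smad3* in microglia-like cells. For *Smad7* they were apart in 1 of 2 niacin libraries in each class, and for *Tgfbr2* in 2 in microglia-like and 1 in monocyte/macrophage-like cells. Both groups of cells share the same 3 libraries.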

How the results depend on the processing

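Of 631 member values recomputed under the alternatives of the 5 tests, 575 kept their direction and their side of the threshold, 24 lost their call, 15 gained one and 17 changed sign, each of these in a difference that had not passed. The cause of these changes was not tested, apart from smaller sample numbers where a library was left out. Each class then had 2 libraries, and the spread was shared over all classes.

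Without the library block, genes called between activated and other microglia-like cells went from 151 to 53, and members called between granulocyte-like and monocyte/macrophage-like cells from 2 to 1. No paired analysis was possible because the vehicle and niacin groups share only replicate number 2, so the block joins classes of a library, not treated and untreated pools.

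Leaving out 1 library at a time gave 2635 to 4896 genes called (main 4275) and 5 to 7 members between microglia-like and monocyte/macrophage-like cells, 2720 to 4515 genes between microglia-like and lymphocyte-like, 1928 to 3095 between monocyte/macrophage-like and lymphocyte-like, 1505 to 3144 with 1 to 4 members for granulocyte-like cells and 37 to 72 with 0 to 1 member for activated cells. In these fits *Smad2* ranged from -0.11 to 0.14 in the first comparison. In the third, *Smad3* ranged from -0.24 to 1.58 and *Ski* from -0.66 to 0.56. For granulocyte-like cells *Smad2* ranged from -0.050 to 0.52, *Smad3* from -0.17 to 0.72, *Ski* from -0.0045 to 0.51 and *Skil* from -0.85 to 0.087.

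With every shared barcode removed, 2731 genes were called between microglia-like and monocyte/macrophage-like cells, 1917 for granulocyte-like and 43 for activated cells. *Smad2* in the first comparison changed sign, to -0.041 with all shared copies kept, -0.17 with all removed and -0.058 without the 5% of cells with the most UMIs. *Ski* between monocyte/macrophage-like and lymphocyte-like cells changed sign to -0.044 with RLE, -0.087 with DESeq2, -0.10 with shared barcodes removed and -0.026 without the deepest 5%.

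For activated cells, DESeq2 called 65 genes, thinning to 1000 UMIs 63 and to 4000 UMIs 311. There 1 member, *Tgfbr1* each time, was called without a filter on low counts, 1 at 10% mitochondrial UMIs, 1 with shared barcodes kept and 1 at 1000 UMIs. Past 1.5-fold between niacin and vehicle in monocyte/macrophage-like cells were 5 members with the stricter class assignment and 5 without the deepest 5%. The share of cells with *Tgfbr1* was 65.7% at 1000 UMIs and 95.3% at 4000 UMIs in microglia-like cells, and 16.5% and 40.2% in monocyte/macrophage-like cells.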
